A study of Homo sapiens with 4 samples.

Results

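Plasminogen activators, their cell-surface receptor, serpins that inhibit them and initiators or brakes of coagulation were examined in U87MG cells, an established human glioblastoma line. The members were 7 genes chosen by symbol, *PLAU*, *PLAT*, *PLAUR*, *SERPINE2*, *SERPINB2*, *THBD* and *F3*, out of 57905 genes listed in each deposited table, and all 7 passed the filter on low counts that left 16416 genes for testing. RNA sequencing compared 2 samples of wild type U87MG cells that were left untreated with 2 samples that received 50 nM chaetocin for 24 h, and all 4 were used here. Chaetocin is a fungal metabolite that inhibits histone methyltransferases and thioredoxin reductase. It was given in DMSO whereas the control cells received nothing, so chaetocin and its solvent cannot be told apart. The labels do not say whether samples of a group came from separate cultures, and p-values then measure the spread between these samples, which may be technical. The libraries held between 21241984 and 32590479 counts.

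Plasmin is a serine protease that dissolves fibrin, degrades matrix glycoproteins and activates other proteases and growth factors. It is cut from its precursor plasminogen by urokinase (uPA, from *PLAU*) or by tissue plasminogen activator (tPA, from *PLAT*). The receptor uPAR, from *PLAUR*, concentrates urokinase on the cell surface, and serpins trap both activators in inactive complexes. Gliomas are known for high urokinase and uPAR levels at their invasive front and for tissue factor, the product of *F3*, which starts coagulation. Thrombomodulin, from *THBD*, binds thrombin and turns it from a clotting enzyme into an activator of protein C.

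Of the 7 genes, *THBD* rose with chaetocin and none fell when an adjusted p under 0.05 was required (quasi-likelihood test of edgeR, Benjamini-Hochberg adjustment over all genes tested). At an unadjusted p under 0.05, 1 of the 7 was higher and 1 lower, against 10.9% and 9.43% of all genes tested. Across all genes tested, 1.11% were called higher and 0.743% lower. *PLAU*, which had the most counts of the 7 in control cells, was lower in both chaetocin samples. Its decrease passed the threshold with DESeq2's Wald test (adjusted p = 0.04) but not with edgeR (adjusted p = 0.175). DESeq2 called 2.81% of all genes lower and 2.72% higher. The median log2 fold change of the 7 genes was -0.15, against 0.01 over all genes tested. In 1 gene both chaetocin samples lay above both control samples, against 26.8% of all genes tested, and in 2 genes they lay below, against 26.0%, so neither count stands out from the background.

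**Figure D1:**
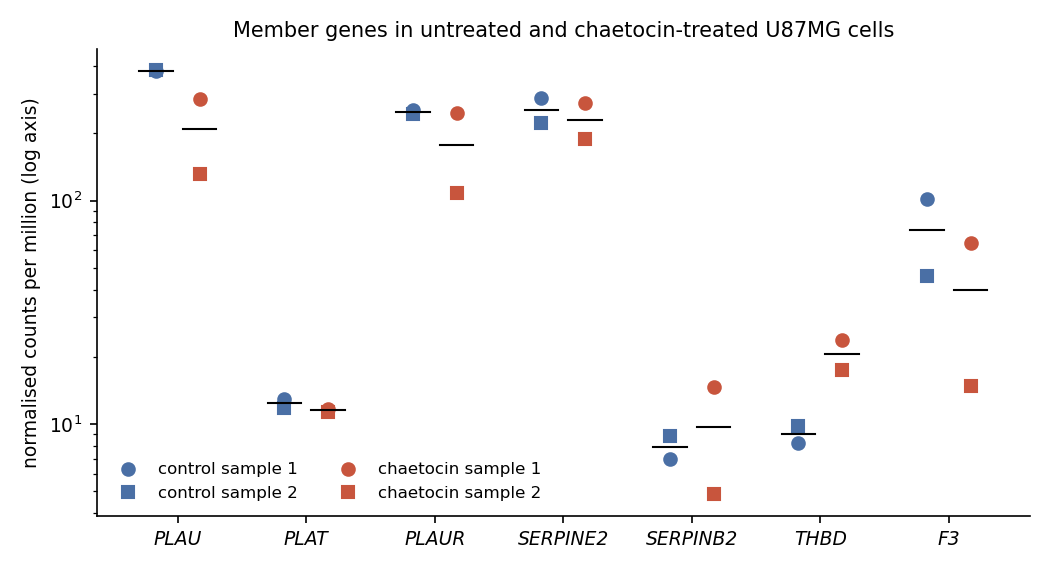
Normalised counts per 1000000 (CPM, log axis) of the 7 genes, with circles for sample 1 and squares for sample 2 of each group and a bar at the group mean. *THBD* lies above control in both chaetocin samples, while each of the other 6 genes has its lowest value in chaetocin sample 2.

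*PLAU* (ENSG00000122861) encodes urokinase and is annotated on chromosome 10 of GRCh38 (73909177 to 73917497). It had 379 and 382 CPM (counts per 1000000, normalised for library size and composition) in the control samples and 285 and 132 CPM in the chaetocin samples. The control samples were nearly equal, both chaetocin samples were below them, and chaetocin sample 2 was far below chaetocin sample 1. The means were 381 ± 2.24 CPM and 208 ± 108 CPM (SD, n = 2 each). On the log2 scale the change was -0.87, with a standard error of 0.31 and a 95% interval from -1.59 to -0.15. The size of this difference depended on both chaetocin samples. Without chaetocin sample 2 the log2 fold change was -0.43, and without chaetocin sample 1 it was -1.53. *C10orf55*, which is annotated on the opposite strand and shares exon bases with *PLAU*, had between 8 and 22 reads per sample.

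*PLAT* (ENSG00000104368, chromosome 8 of GRCh38, 42175233 to 42207724) encodes tissue plasminogen activator. It had 12.9 and 11.8 CPM in the control samples and 11.7 and 11.4 CPM with chaetocin. The chaetocin values lay just below the control values, and the group means of 12.4 ± 0.81 CPM and 11.6 ± 0.25 CPM (SD, n = 2 each) differed by a log2 fold change of -0.10. The 95% interval ran from -0.53 to 0.33 (edgeR quasi-likelihood, adjusted p = 0.815), so a fold change beyond 0.691 or 1.26 lies outside it.

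*PLAUR* (ENSG00000011422, chromosome 19 of GRCh38, 43646095 to 43670547) encodes the urokinase receptor uPAR, which is anchored in the membrane by a lipid. Its level was 254 and 244 CPM in the control samples and 247 and 108 CPM with chaetocin. Chaetocin sample 1 fell between the control samples, so the groups overlapped, and only chaetocin sample 2 was low. The log2 fold change was -0.49, with a 95% interval from -1.27 to 0.30 (edgeR quasi-likelihood, adjusted p = 0.463). It was -0.02 without chaetocin sample 2 and -1.20 without chaetocin sample 1. *RN7SL368P*, a small non-coding gene annotated within *PLAUR* on the same strand, had between 4 and 9 reads per sample.

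*SERPINE2* (ENSG00000135919, chromosome 2 of GRCh38, 223975112 to 224039319) encodes protease nexin-1, a serpin of the extracellular space that inhibits thrombin, urokinase and tissue plasminogen activator. Its values were 288 and 223 CPM in control cells and 272 and 189 CPM with chaetocin. The groups overlapped, and the spread within each group was larger than the difference between their means. The log2 fold change was -0.15, with a 95% interval from -0.64 to 0.34 (edgeR quasi-likelihood, adjusted p = 0.747). Its direction was not stable, being 0.03 without control sample 1 and 0.08 without chaetocin sample 2.

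*SERPINB2* (ENSG00000197632, chromosome 18 of GRCh38, 63871692 to 63903890) encodes plasminogen activator inhibitor type 2, a serpin found mostly inside cells such as monocytes and keratinocytes. It had 6.97 and 8.84 CPM in the control samples and 14.6 and 4.84 CPM with chaetocin. The chaetocin samples lay on opposite sides of both control samples. The log2 fold change of 0.28 had a 95% interval from -0.78 to 1.34 (edgeR quasi-likelihood, adjusted p = 0.783). It was 0.88 without chaetocin sample 2 and -0.71 without chaetocin sample 1, so no direction can be given. *SERPINB10*, which shares annotated exon bases with *SERPINB2* on the same strand, had at most 1 read in any sample.

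*THBD* (ENSG00000178726, chromosome 20 of GRCh38, 23045633 to 23049741) has 1 annotated transcript and encodes thrombomodulin. It had 200 and 283 raw counts in the control samples against 516 and 617 in the treated ones, or 8.20 and 9.85 CPM against 23.7 and 17.4 CPM. Both chaetocin samples were above both control samples, and the distance between the groups was larger than the spread within either. *THBD* rose 2.27-fold with a 95% interval from 1.60 to 3.23, the group means being 9.02 ± 1.17 CPM in control and 20.5 ± 4.49 CPM with chaetocin (SD, n = 2 each). The log2 fold change was 1.18 with a standard error of 0.22 (adjusted p = 0.0424 with edgeR and 0.00063 with DESeq2), and the gene ranked 240 by p-value among the 16416 genes. The call was lost without control sample 1 (log2 fold change 1.04, adjusted p = 0.0981) and with limma voom (1.15, adjusted p = 0.0516).

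*THBD* is best known from endothelium and is also made by monocytes and keratinocytes, so markers of these cells were read in the same libraries. In the endothelial list, of which 5 of 6 genes were in the tables, the summed level was 13.6 and 18.6 CPM in control samples and 12.2 and 11.7 CPM with chaetocin, and the defining genes *CDH5* and *CLDN5* stayed under 1 CPM. No gene of this list was called by edgeR, and DESeq2 called 1, *KDR*, a receptor of vascular endothelial growth factor, as lower (208 and 374 reads against 115 and 194, adjusted p = 0.0853 with edgeR and 0.0258 with DESeq2). *VWF*, which endothelium also makes, had 0.574 and 1.15 CPM in control samples and 1.93 and 2.67 CPM with chaetocin (adjusted p = 0.126 from edgeR). The 6 leukocyte markers summed to 0.492 and 0.592 CPM in control samples and to 2.62 and 3.27 CPM with chaetocin. Of these 6, *PTPRC* and *ITGAM* had at most 1 read in a control sample and 15 to 29 reads in a chaetocin sample. Both passed the filter on low counts only through the chaetocin samples, so their calls as higher are not counted as support. *CD14* had 7 and 11 reads in control samples and 10 and 41 with chaetocin, and *CD68* had 5 and 4 against 8 and 12. Neither was called by edgeR. *LYZ* had 7 reads in chaetocin sample 2 and none elsewhere, and *CD3E* had no read in any sample. The keratinocyte genes *KRT5* and *KRT14* also had no read. The 5 epithelial markers summed to 1.23 and 1.29 CPM in control samples and to 2.34 and 2.76 CPM with chaetocin, with 0 called by either tool, and the 2 that were tested, *EPCAM* (20 and 24 reads against 27 and 70) and *CDH1* (3 and 4 reads against 11 and 20), had more reads in both chaetocin samples, *CDH1* having passed the filter only through them. The part of leukocyte or epithelial RNA in the rise of *THBD* was not tested.

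*F3* (ENSG00000117525, chromosome 1 of GRCh38, 94529225 to 94541800) encodes tissue factor, the membrane receptor of factor VII and trigger of clotting. It had 102 and 46.0 CPM in the control samples and 64.8 and 14.9 CPM with chaetocin. Chaetocin sample 1 lay between the control samples and chaetocin sample 2 was the lowest of all. The log2 fold change of -0.90 had the widest 95% interval of the 7 genes, from -2.93 to 1.13 (edgeR quasi-likelihood, adjusted p = 0.58). Leaving out 1 sample gave values from -2.31, without chaetocin sample 1, to -0.20, without chaetocin sample 2.

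**Figure D2:**
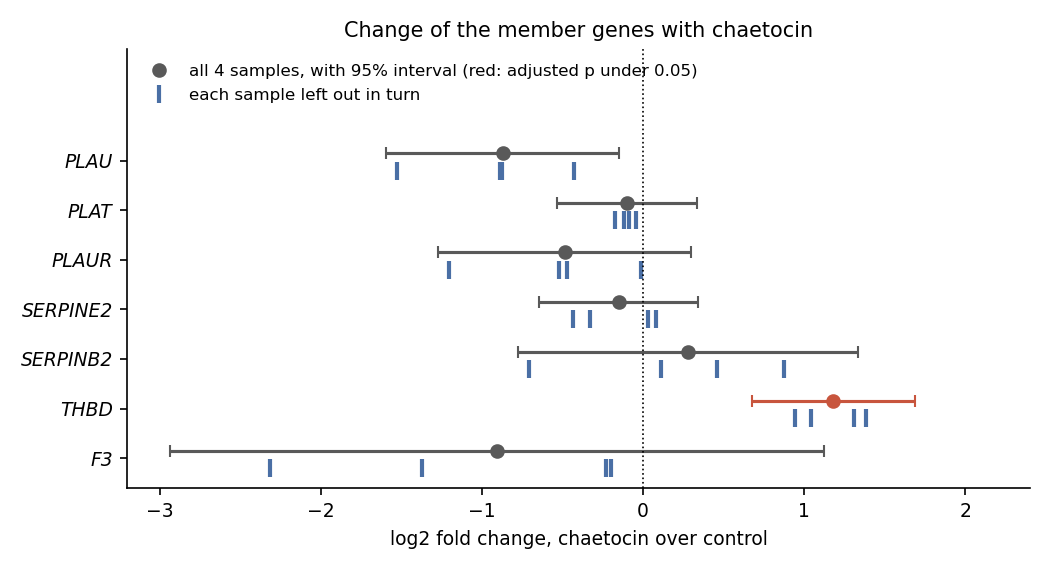
Log2 fold change of chaetocin over control for the 7 genes, with the 95% interval of the fit to all 4 samples (points and bars, red where the adjusted p was under 0.05) and the values with each sample left out (blue ticks). The interval of *THBD* lies wholly above 0, from 0.67 to 1.69, and the ticks of *SERPINE2* and *SERPINB2* fall on both sides of 0.

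The chaetocin samples differed from each other unevenly over the 7 genes. Sample 2 was below sample 1 by 4.36-fold for *F3*, 3.02-fold for *SERPINB2*, 2.29-fold for *PLAUR* and 2.16-fold for *PLAU*, but by 1.03-fold for *PLAT*. Among 13608 tested genes with a mean of at least 1 CPM and reads in every sample, 0.147% differed between the chaetocin samples as much as *F3* did, 0.72% as much as *SERPINB2*, 2.43% as much as *PLAUR* and 3.19% as much as *PLAU*. The control samples also differed for *F3*, by 2.22-fold, which 1.19% of those genes reached, whereas they differed by 1.01-fold for *PLAU* and 1.04-fold for *PLAUR*. Markers of the mesenchymal glioma line itself, *VIM*, *CD44*, *NES*, *SPARC*, *TNC* and *S100A6*, summed to 10560 and 8937 CPM in control samples and to 6968 and 4712 CPM with chaetocin, also lowest in chaetocin sample 2. Of these 6, 0 were called by edgeR, with 4 lower at an unadjusted p under 0.05 (9.43% of all genes), and DESeq2 called 3 lower (2.81% of all genes), *VIM*, *CD44* and *SPARC* (adjusted p = 0.0144, 0.000166 and 0.00178). Their part in the low values of that sample was not tested. In bulk RNA, fewer cells of a kind and less RNA per cell cannot be told apart. Of the 4 astrocyte markers read in this line, *GFAP* had 25 reads in each control sample and 10 and 17 with chaetocin. *ALDH1L1* had 5 and 16 reads in control samples against 22 and 37 with chaetocin. *S100B* had no read in control samples and 2 in each chaetocin sample, and *AQP4* had none in any sample.

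Ratios of raw counts within a library do not depend on the scaling between libraries. *PLAU* reads outnumbered *SERPINE2* reads 1.32-fold and 1.71-fold in the control samples, and the ratio was 1.05 and 0.699 in the chaetocin samples. Both chaetocin ratios were below both control ratios, with a difference of -0.81 between the group means on the log2 scale. *PLAU* reads also outnumbered *PLAUR* reads by 1.50-fold and 1.57-fold in control samples and by 1.15-fold and 1.22-fold with chaetocin. This ratio was similar in both chaetocin samples although each gene was far lower in sample 2, and its group means differed by -0.37 on the log2 scale. The *PLAT* to *SERPINE2* ratio overlapped between the groups, between 0.0431 and 0.0602 over the 4 samples. With 2 samples against 2, an exact two-sided permutation test cannot give a p below 0.333, so the ratios are descriptions.

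**Figure D3:**
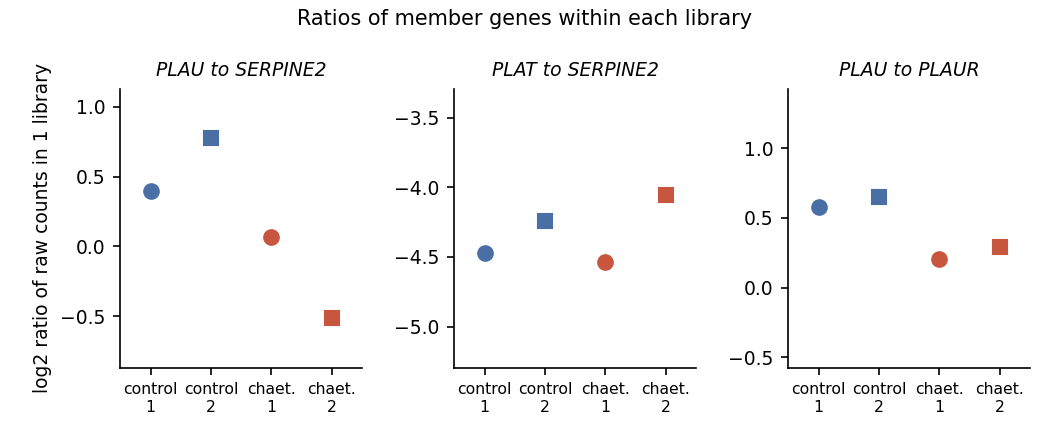
Log2 ratio of raw counts of gene pairs within each of the 4 libraries, on axes of equal span. The *PLAU* to *SERPINE2* and *PLAU* to *PLAUR* ratios are lower in both chaetocin libraries, and the *PLAT* to *SERPINE2* ratio overlaps between groups.

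Expressed as CPM per kilobase of exon, *PLAU* was the highest of the 7 genes in control cells, at 129 ± 0.758 (SD, n = 2), above 98.5% of 13151 protein-coding genes tested. *PLAUR* followed at 55.8 ± 1.52, *SERPINE2* at 28.8 ± 5.12 and *F3* at 25.8 ± 13.8, the last pair overlapping. *SERPINB2* at 2.88 ± 0.48, *THBD* at 2.20 ± 0.28 and *PLAT* at 1.87 ± 0.12 were far lower, and *PLAT* was above only 29.9% of protein-coding genes. On this scale of level, urokinase transcripts therefore exceeded those of tissue plasminogen activator in every sample, with 128 against 1.96 and 130 against 1.78 in the control samples and 96.5 against 1.77 and 44.7 against 1.72 with chaetocin. With chaetocin, every neighbouring pair in the order of mean levels overlapped, and *THBD* moved above *SERPINB2*. With the longest transcript as the length in place of all exons, *PLAUR* stood above *PLAU* in control cells, at 155 against 143, so the order of these genes depends on the length used.

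Promoter sequences of RefSeq on GRCh38.p14 were found for 5 of the 7 genes, in 7 windows, since *PLAU* and *SERPINE2* have 2 starts each, and none was found for *THBD* and *PLAT*. In the 250 bases before each start, both strands were searched for the AP-1 motif TGANTCA, the ETS core CGGAAG, the GC box GGGCGG, the NRF2 core TGACNNNGC, the TEAD motif CATTCC, the TATA box TATAAA and the NF-kB motif. The AP-1 motif, which reads the same on both strands and can share bases with the NRF2 core, was present upstream of *F3*, *SERPINB2* and *PLAUR*, and in 6.57% of the 35116 promoter windows of the table. *SERPINE2* and *PLAU* had no AP-1 match in their windows, and *PLAU* had 3 GC boxes before its downstream start, a motif held by 42.6% of windows. A TATA box lay 28 bases before the *F3* start and 30 bases before the *SERPINB2* start, against 10.7% of windows. Of the 7 windows, 2 held the ETS core and 2 the NRF2 core, against 16.5% and 10.9% of all windows, while 0 held the TEAD or the NF-kB motif, against 11.9% and 9.96%. A match is a description of letters and not a bound site.

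The following sequences are shown for the AP-1 matches (capitals) of 3 genes and, for *PLAU*, for 2 of its 3 GC boxes (capitals). They are written 5′ to 3′ on the strand of the gene. The *F3* stretch is chr1:94541801-94542009 (minus strand, 250 to 42 bases before the start), the *SERPINB2* stretch is chr18:63887455-63887699 (plus strand, 250 to 6 bases before the start), the *PLAUR* stretch is chr19:43670338-43670366 (minus strand, 197 to 169 bases before the start, inside the first exon of a longer annotated transcript) and the *PLAU* stretch is chr10:73911064-73911091 (plus strand, 68 to 41 bases before the downstream start).
F3: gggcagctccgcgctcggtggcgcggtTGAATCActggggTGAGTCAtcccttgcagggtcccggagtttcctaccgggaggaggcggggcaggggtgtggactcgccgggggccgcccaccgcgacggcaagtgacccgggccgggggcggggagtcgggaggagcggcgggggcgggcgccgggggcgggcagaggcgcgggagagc
SERPINB2: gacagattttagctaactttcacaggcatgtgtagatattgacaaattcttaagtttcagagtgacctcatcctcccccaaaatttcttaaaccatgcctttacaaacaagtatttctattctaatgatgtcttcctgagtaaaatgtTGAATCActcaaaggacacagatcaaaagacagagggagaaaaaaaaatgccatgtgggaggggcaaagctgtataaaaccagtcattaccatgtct
PLAUR: tcacaactccaTGAGTCAgggccgagcca
PLAU: ccGGGCGGgagagggagGGGCGGcgccg

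The genes whose profile was most like that of *THBD*, by the Euclidean distance over 4 samples of log2 CPM centred on the control mean, among 13611 genes with a mean of at least 1 CPM, were *MILIP* (distance 0.04), *TSSK6* (0.09) and *UPP1* (0.17). *UPP1*, which encodes uridine phosphorylase, had 36.8 and 43.1 CPM in control samples and 93.4 and 75.0 CPM with chaetocin, a log2 fold change of 1.07 (edgeR quasi-likelihood, adjusted p = 0.0306). *MILIP* (adjusted p = 0.0514) and *TSSK6* (adjusted p = 0.108) were not called.

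Around the members, 7 lists of related genes were read in the same fit. In the list of coagulation and protein C genes, 2 of 15 tested genes fell and 0 rose (edgeR, against 0.743% and 1.11% of all genes), 1 was higher and 3 were lower at an unadjusted p under 0.05 (10.9% and 9.43%), and the median log2 fold change was -0.21. Both were receptors that proteases switch on by cutting them. *F2RL1*, the receptor PAR2 of trypsin-like proteases, had 31.5 ± 1.02 CPM in control and 13.1 ± 3.09 CPM with chaetocin (SD, n = 2 each; log2 fold change -1.26, edgeR adjusted p = 0.0306). *F2R*, the thrombin receptor PAR1, had 39.9 ± 0.35 CPM and 21.5 ± 1.35 CPM (SD, n = 2 each; log2 fold change -0.89, edgeR adjusted p = 0.0365), and its call was lost without control sample 1 (adjusted p = 0.0855) or control sample 2 (0.0852). *TFPI*, the inhibitor of the tissue factor complex, was singled out after its values were seen. It had 272 and 217 CPM in control samples and 249 and 122 CPM with chaetocin, and the groups overlapped (edgeR adjusted p = 0.507). *TFPI2*, of the same list, had 2555 and 1969 CPM in control samples and 2782 and 856.5 CPM with chaetocin. The lowest value lay in chaetocin sample 2 for both, as for every member but *THBD*. The share of all genes with this pattern was not counted.

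Among 11 tested serpins other than the members, 0 were called by edgeR, with 3 at an unadjusted p under 0.05 on the side of increase and 1 on the side of decrease (10.9% and 9.43% of all genes), and the median was 0.15. DESeq2 called 1 higher and 1 lower (2.72% and 2.81% of all genes). *SERPINB4* had 2 and 8 reads in control samples and 44 and 34 with chaetocin (adjusted p = 0.0675 from edgeR). It is the gene that DESeq2 called higher, but it passed the filter only through the chaetocin samples, where it was high. Its sequence is close to that of *SERPINB3*, which had 3 and 0 reads in control samples and 1 and 16 with chaetocin. Whether reads of these genes were mixed up was not tested. *SERPIND1*, heparin cofactor II, had 7.66 and 5.85 CPM in control samples and 19.3 and 6.05 CPM with chaetocin, and the groups overlapped.

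In the list of plasminogen, its binding proteins and its clearance receptors, 8 of 10 tested genes had a log2 fold change below 0, against 49.1% of all genes tested, and the median was -0.34, but 0 were called by edgeR, with 3 at an unadjusted p under 0.05, all on the side of decrease (9.43% of all genes), and DESeq2 called 1 lower (2.81%). Plasminogen itself, *PLG*, had no read in control samples and 1 read in each chaetocin sample.

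In the list of secreted or membrane serine proteases, which also holds the matrix protein reelin, 16 genes were tested. Of these, edgeR called 2 higher and 1 lower (1.11% and 0.743% of all genes). At an unadjusted p under 0.05, 2 were higher and 5 lower (10.9% and 9.43%), and the median was -0.19. *PRSS23*, a secreted serine protease, fell, with 104 ± 2.23 CPM in control and 50.8 ± 7.40 CPM with chaetocin (SD, n = 2 each; log2 fold change -1.03, edgeR adjusted p = 0.0306). *HTRA3*, a serine protease with 2 and 0 reads in control samples, had 43 and 133 reads with chaetocin (adjusted p = 0.0266), and *RELN*, the matrix protein reelin, had 1 read in each control sample and 45 and 94 with chaetocin (adjusted p = 0.0124). Both passed the filter only through the chaetocin samples, where they were high, and with at least 10 counts required in every sample neither was tested and 0 genes of the list were called higher. Both were near the limit of detection in untreated cells, where 3 counts correspond to between 0.104 and 0.123 CPM. The limit covers counting error only, since reads amplified from the same molecule are counted apart.

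Among 18 tested integrins, receptors and adhesion proteins linked to uPAR, edgeR called 2 lower and 1 higher (0.743% and 1.11% of all genes), 7 were lower and 3 higher at an unadjusted p under 0.05 (9.43% and 10.9%), and the median was -0.37. *PDGFRB*, a receptor tyrosine kinase, had 63.8 ± 20.5 CPM in control and 20.3 ± 4.44 CPM with chaetocin (SD, n = 2 each; log2 fold change -1.65, edgeR adjusted p = 0.0306, and 0.0538 without chaetocin sample 2). *ITGA3*, an integrin subunit that pairs with the beta1 chain, had 2693 ± 75.9 CPM and 1251 ± 204 CPM (SD, n = 2 each; log2 fold change -1.11, edgeR adjusted p = 0.0437, 0.145 without control sample 2 and 0.0555 with at least 10 counts required in every sample). *ITGAM*, the gene called higher, is the leukocyte marker named above, tested only through its chaetocin reads. DESeq2 called 6 of these genes lower and 1 higher (2.81% and 2.72% of all genes). In the list of Kunitz, Kazal and other protease inhibitors, 0 of 10 tested genes were called by edgeR, with 2 higher and 1 lower at an unadjusted p under 0.05 (10.9% and 9.43% of all genes), and DESeq2 called 1 higher (2.72%). *SPINK1*, a secreted trypsin inhibitor, had 17 and 63 reads in control samples and 93 and 365 with chaetocin (adjusted p = 0.0749), and *SPINT2*, a Kunitz inhibitor, had 1 and 4 reads against 10 and 12 (adjusted p = 0.207) and was tested only through its chaetocin reads. Of 6 tested proteins with a Ly6/uPAR domain, 0 were called by edgeR, with 2 higher and 2 lower at an unadjusted p under 0.05 (10.9% and 9.43% of all genes), and DESeq2 called 1 higher and 1 lower (2.72% and 2.81%). *LYPD6*, which modulates Wnt signalling, had 4.86 ± 0.13 CPM in control and 11.6 ± 3.23 CPM with chaetocin (SD, n = 2 each; adjusted p = 0.0513), and *BAMBI*, a pseudoreceptor of the TGF-beta pathway, had 25 reads in each control sample and 25 and 99 with chaetocin.

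**Figure D4:**
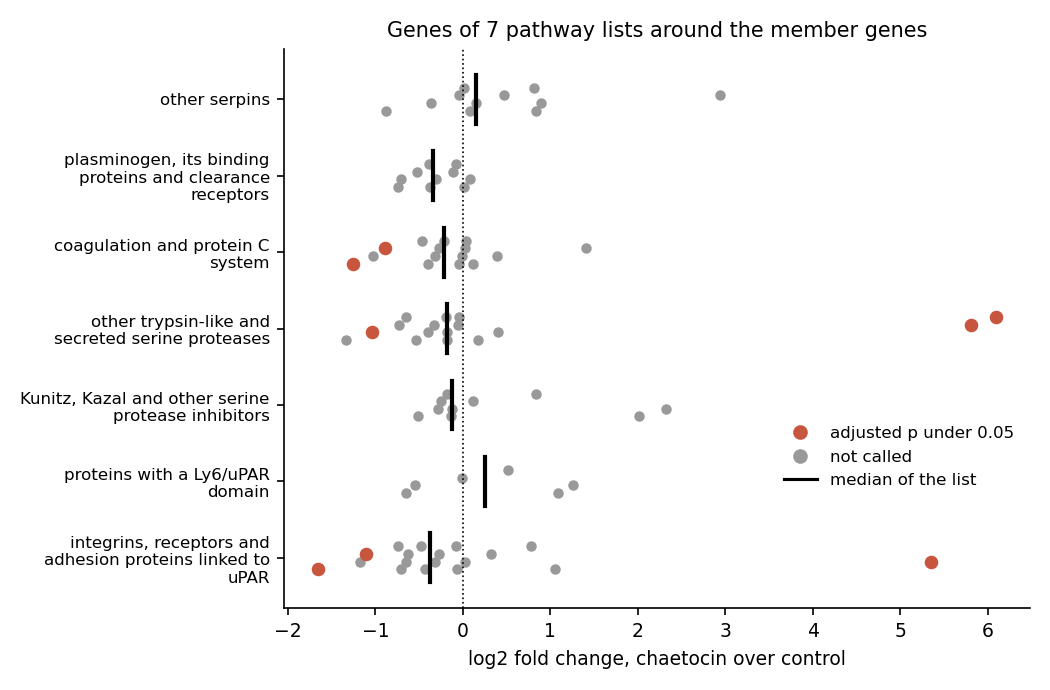
Log2 fold change of each tested gene in the 7 lists, in red where the adjusted p was under 0.05, with a black line at the list's median. Medians lie between -0.37 and 0.25, and the 3 points beyond 5 are *HTRA3*, *RELN* and *ITGAM*, all with at most 2 reads in a control sample, so that their place on the axis depends on the fit's prior count.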

How the data were processed

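Per the labels, polyadenylated RNA of U87MG cells was made into libraries with 15 cycles of PCR. The authors deposited raw counts per Ensembl gene, without normalization. The submitters' processing notes name cutadapt, TopHat2, SAMtools and GRCh37; the counting tool and its strand setting are not given in the sources used here. Symbols, positions and exon lengths were taken from GENCODE release 29 on GRCh38, which listed 52338 of 57905 identifiers, and lengths may therefore differ from those used for counting. Groups came from the sample titles.

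All genes were fitted with edgeR 4.0.16 in R 4.3.3 (filterByExpr with a minimum count of 10, TMM factors, robust quasi-likelihood test, no block, 16416 genes), and Benjamini-Hochberg adjusted p-values under 0.05 were called. Standard errors and 95% intervals were derived from the F statistic. CPM values use TMM-scaled library sizes. On simulated data for this comparison (15895 genes), the test called 71% of those simulated with a 2-fold difference and 97% with a 4-fold one. The simulated spread followed the level of each gene and was equal in both groups, and only genes above 1 CPM were changed. These shares therefore do not apply to genes whose samples differ as much as those of *F3* and *SERPINB2*. Alternatives used DESeq2 1.42.0, limma 3.58.1, other factors and filters, a replicate block and each sample left out.

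A further gene of the rule that lists the members was not analysed here, so counts and medians over the members are over 7 genes. The members and gene lists were chosen with earlier results of these data known, so lists are described by counts and medians only. Named from each list were at most 4 called genes with the largest change or, with fewer than 2 called, the 2 largest changes; for the called member, the 3 genes of nearest profile; and genes overlapping a member. The genes that this rule names from the plasminogen list are not reported here.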

Additional observations from a re-analysis of the deposited data

How the results depend on the processing

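RLE size factors moved none of the results, and the median of all genes on the log2 scale was 0.01 with TMM and 0.08 with upper-quartile factors. *THBD* was called in 9 of 11 alternatives and *PLAU* in 4 of 11. With limma voom *THBD* stood at 1.15 (adjusted p = 0.0516), 0 members were called higher and *SERPINB2* turned to -0.014. With DESeq2 *PLAU* was -0.87 and 1 member was called lower, 447 genes were called higher and 461 lower over all genes, 1 serpin, 1 Kunitz or Kazal inhibitor, 1 Ly6/uPAR gene, 2 serine proteases and 1 uPAR-linked gene were called higher, and 1 serpin, 1 gene of the plasminogen list, 1 Ly6/uPAR gene, 2 coagulation genes, 1 serine protease and 6 uPAR-linked genes lower. Without a filter on low counts *PLAU* was -0.89 (adjusted p = 9.2e-05) and 1 member was called lower, with 787 genes higher and 759 lower in all. There the calls were 3 serpins, 2 Ly6/uPAR genes, 1 inhibitor, 1 coagulation gene, 2 serine proteases and 1 uPAR-linked gene higher, and 1 serpin, 1 Ly6/uPAR gene, 3 plasminogen genes, 2 coagulation genes, 4 serine proteases and 6 uPAR-linked genes lower, and the medians were 0.0049 for coagulation and 0.23 for inhibitors, both of the opposite sign, -0.14 for the plasminogen list and 0.50 for Ly6/uPAR genes. With at least 10 counts in every sample, 114 genes were called higher and 80 lower, 0 serine proteases higher, and of the uPAR-linked genes 0 higher and 1 lower. Upper-quartile factors gave an inhibitor median of -0.052 and 1 Ly6/uPAR gene higher. Unadjusted p-values gave 1791 genes higher and 1548 lower, and 1 member lower. With the longest transcript as length, control levels per kilobase were 143 for *PLAU*, 155 for *PLAUR*, 42.7 for *SERPINE2*, 3.67 for *SERPINB2* and 3.57 for *PLAT*. For none of these settings was the cause tested.

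The samples share replicate numbers, but the difference between samples 1 and 2 correlated by only r = 0.123 between the groups over 16416 genes, and nothing in the labels pairs them. With the replicate block, *F3* was -1.13 (adjusted p = 0.000433) and *PLAU* -0.97 (adjusted p = 0.00743), so that 2 members were called lower, and 1036 genes were called higher and 1053 lower. In that fit with the replicate block 1 serpin, 1 inhibitor, 1 coagulation gene, 1 Ly6/uPAR gene, 2 serine proteases and 1 uPAR-linked gene were called higher, and 1 serpin, 1 Ly6/uPAR gene, 3 plasminogen genes, 3 coagulation genes, 4 serine proteases and 7 uPAR-linked genes lower.

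Leaving out each sample in turn, where the sample left alone in its group is assumed to vary like the other group, gave log2 fold changes of -1.53 to -0.43 for *PLAU*, -1.20 to -0.015 for *PLAUR*, -0.43 to 0.082 for *SERPINE2*, -0.71 to 0.88 for *SERPINB2*, 0.95 to 1.38 for *THBD* and -2.31 to -0.20 for *F3*, and a member median of -0.71 to -0.015. Between 0 and 2 members were called higher and between 0 and 2 lower. Over all genes, 215 to 1332 were called higher and 97 to 1673 lower, the highest counts being those without chaetocin sample 1, and 712 and 940 those without chaetocin sample 2. Calls ranged from 0 to 2 higher and 0 to 1 lower for serpins, 0 to 5 lower for the plasminogen list, 0 to 1 higher and 1 to 6 lower for coagulation, 1 to 4 lower for serine proteases, 0 to 1 higher and 0 to 1 lower for inhibitors, 0 to 3 higher and 0 to 1 lower for Ly6/uPAR genes and 2 to 9 lower for uPAR-linked genes. List medians ranged from 0.20 to 0.34 for serpins, -0.40 to -0.086 for the plasminogen list, -0.21 to -0.0088 for coagulation, -0.37 to -0.035 for serine proteases, -0.12 to 0.46 for inhibitors, 0.27 to 0.69 for Ly6/uPAR genes and -0.42 to -0.22 for uPAR-linked genes. Depth limits the least abundant list genes, since 3 counts correspond to between 0.0844 and 0.138 CPM in these libraries.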
